A study of Homo sapiens with 8 samples.

Results

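The SLC2A1 locus is taken here as a stretch of the short arm of human chromosome 1, from 43100001 to 44500000 on hg19, and its members are all deposited windows that lie wholly inside it. That gave 118 of the 278316 windows of 100 kb and 244 of the 556938 windows of 50 kb. The interval holds the starts of ERMAP at 43.283 Mb, SLC2A1 at 43.425 Mb, EBNA1BP2 at 43.638 Mb, HYI at 43.92 Mb and ARTN at 44.399 Mb, given to the nearest 1 kb, and SLC2A1-AS1, an antisense RNA that starts next to SLC2A1. SON TSA-seq was run on 786-O, an established human line from a clear cell carcinoma of the kidney, grown under atmospheric oxygen. The cells received 2 µM PT2399 or an equal volume of the vehicle DMSO, each for 3 h, and each treatment had 2 SON pulldowns and 2 inputs. All groups come from this 1 line, so the control cells share its genotype. For 4 of 8 libraries the antibody and treatment labels go against the title, and the titles were followed, so every direction below rests on the names of the deposited columns, control and treatment, read as DMSO and PT2399.

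SLC2A1 encodes GLUT1, the glucose transporter that brings glucose into most cells, and is a textbook target of the hypoxia-inducible factors. 786-O cells lack working VHL, the protein that marks these factors for destruction, and so keep HIF-2α active in air. PT2399 keeps HIF-2α apart from ARNT, the partner it needs to bind DNA. Nuclear speckles are bodies rich in splicing factors, and SON is one of their core proteins. TSA-seq deposits biotin on chromatin near the SON antibody, so a higher SON level marks DNA nearer to speckles in the cell population. RNA was not measured in these libraries, so the line could not be checked against marker genes and no level below is an expression level.

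The unit is the log2 concentration of SON signal per window, deposited as 1 mean per treatment, with a p-value and a false discovery rate (FDR). Values per library were not used here, so no standard deviation goes with any value and the depth of each library is unknown. The authors' FDR is the only measure of error, and as the labels leave it unsaid whether the 2 replicates were separate cultures, the spread behind it may be technical. Changes are PT2399 minus DMSO, and a change was called where the FDR in the authors' deposited tables was at most 0.01 and both concentrations were at least 2, which defines a measured window. The windows come in 9 sets shifted by 10 kb (100 kb windows) or 5 kb (50 kb windows), so neighbouring windows share most of their reads and are not replicates. Every window of the locus lay far above the minimum, the lowest at 8.96 with PT2399 and 9.26 with DMSO among 50 kb windows. Over all measured windows of the genome the median change was -0.13 at 100 kb and -0.12 at 50 kb.

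SON signal over the SLC2A1 locus lay below that of DMSO in PT2399-treated cells along nearly its whole length, and part of it passed the test. All 118 windows of 100 kb had a change below 0, with a median of -0.28 (quartiles -0.32 and -0.23), and 53 of them were called lower by the FDR in the authors' deposited tables. That is 44.9% of the locus, against 1.55% of all measured 100 kb windows and 3.09% of those on chromosome 1. Calls are more frequent where the signal is high, and among the 15395 other windows with a mean concentration in the range of the locus, 10.2 to 11.62, 4.36% were called lower. Their median change was -0.13, with quartiles at -0.20 and -0.06, and 89.5% of them had a change below 0. That share was 67.5% over all measured 100 kb windows and 77.2% on chromosome 1, so a change below 0 is common outside the locus. In the locus 0 windows were called higher at 100 kb, where 0.0853% of all measured windows were. Of the 118, 112 had an unadjusted p under 0.05 in the authors' deposited tables. The share of such windows in the genome was not worked out, so this count has no background to be read against. Summed on the linear scale, the PT2399 signal of the locus was 83.0% of the DMSO signal (82.8% to 83.2% over the 9 sets), and that of all measured windows was 91.8%.

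The share of called windows depended on how the treatments were scaled. With each set recentred on the median change of its measured windows, and an error worked back from each window's fold and p-value, 115 of the 118 windows stayed below 0 and the median became -0.15. The number called lower was then 1 of 118 (0.847%), with a Benjamini-Hochberg adjusted p of 0.00894 by this implied-error test. The window ran from 43360001 to 43460000 and holds the SLC2A1 start. Of all measured windows 0.161% were called lower in this way, and 0.312% of the other windows in the locus range of mean concentration. The locus share rests on 1 call, and no test compared these shares.

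**Figure D1:**
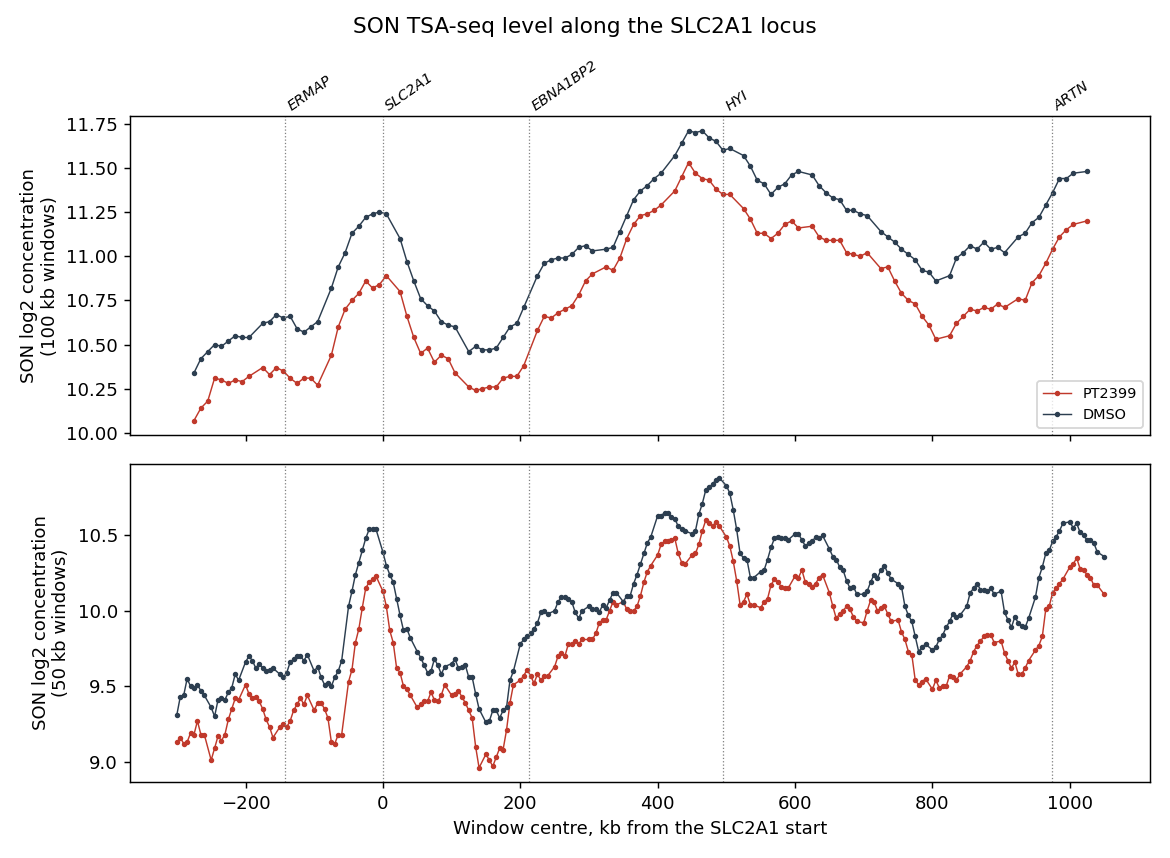
SON log2 concentration (y axis) against the distance of the window centre from the SLC2A1 start in kb (x axis), for 100 kb windows above and 50 kb windows below, with PT2399 in red and DMSO in dark blue. Each point is the authors' mean for 1 window and dotted lines mark gene starts. The PT2399 curve follows the DMSO curve from below, with peaks at SLC2A1, near HYI and past ARTN, and the curves come closest between EBNA1BP2 and HYI.

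The shape of the SON profile was alike under both treatments. Its highest 100 kb window, 43820001 to 43920000, stood at 11.53 with PT2399 and 11.71 with DMSO, and its lowest, 43100001 to 43200000, at 10.07 with PT2399 and 10.34 with DMSO. The locus spanned 1.46 log2 units with PT2399 and 1.37 with DMSO. A separate peak lay over SLC2A1, and a trough between SLC2A1 and EBNA1BP2 was lowest at 10.24 with PT2399, in the window from 43510001 to 43610000 (10.49 with DMSO). The neighbouring window from 43500001 to 43600000, at 10.26 with PT2399 and 10.46 with DMSO, held its lowest DMSO level.

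At 100 kb the gene starts had the same order of SON level under both treatments. Over the 9 windows of 100 kb that hold its start, HYI had a median of 11.38 with PT2399 and 11.65 with DMSO. ARTN had 10.96 with PT2399 and 11.29 with DMSO, and SLC2A1 had 10.80 with PT2399 and 11.17 with DMSO. EBNA1BP2 stood lower, at 10.38 with PT2399 and 10.71 with DMSO, and ERMAP was the lowest at 10.31 with PT2399 and 10.63 with DMSO. HYI did not overlap the other 4 in the range of its windows under either treatment, while each later neighbour in this order overlapped the gene before it. At 50 kb SLC2A1 had a median of 10.13 with PT2399 and 10.39 with DMSO and ARTN had 10.03 with PT2399 and 10.40 with DMSO, so SLC2A1 was the higher with PT2399 and ARTN, by a narrow margin, with DMSO. Of the measured 100 kb windows of the genome, 6.86% with PT2399 and 4.17% with DMSO reached the SLC2A1 level, and 15.0% with PT2399 and 11.6% with DMSO reached that of ERMAP.

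SLC2A1 had the lowest median change of the 5 starts at 100 kb. All 9 windows that hold its start were called lower, with a median change of -0.36, which leaves 77.9% of the DMSO signal. PT2399 levels in these windows ran from 10.54 to 10.89 and DMSO levels from 10.86 to 11.25, so the ranges overlap across positions, but within each window PT2399 was the lower. The window centred nearest the start, 43370001 to 43470000, had 10.84 with PT2399 and 11.25 with DMSO, a change of -0.41 that leaves 75.3% (FDR 7.4e-07 in the authors' deposited table). It ranked number 44 by FDR among all lower measured 100 kb windows, of which 1403 were called. Its neighbour from 43360001 to 43460000 had 10.82 with PT2399 and 11.24 with DMSO, and its change of -0.42 was the lowest of the locus (FDR 9.06e-07 in the authors' deposited table). Among the 5062 measured windows of the genome within 0.25 of the same mean concentration, 1.03% had a change of -0.36 or lower. These include windows of the locus itself. At 50 kb, 3.54% of 6358 such windows were as low as the SLC2A1 median of -0.33. After recentring the median change was -0.24, with a median adjusted p of 0.0722 by the implied-error test.

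The 50 kb windows resolved the change around SLC2A1 into more than 1 dip. RefSeq places SLC2A1 on the minus strand, so the gene runs from its start towards lower coordinates. On that side, the 50 kb window from 43355001 to 43405000, which does not hold the start, stood at 9.61 with PT2399 and 10.13 with DMSO. Its change of -0.52 leaves 69.7% of the DMSO signal and was the lowest of the 244 windows (FDR 0.000307 in the authors' deposited table). The window centred on the start, 43400001 to 43450000, had 10.13 with PT2399 and 10.39 with DMSO, and its change of -0.26 was not called, at an FDR of 0.121 in the authors' deposited table. Mostly past the start, on the side of SLC2A1-AS1, the window from 43420001 to 43470000 had 9.62 with PT2399 and 10.08 with DMSO, or -0.46 in change, with an FDR of 0.00557 in the authors' deposited table. Of the 9 windows of 50 kb that hold the start, 3 were called lower, and the other 6 had changes from -0.37 to -0.26. The difference between the dips and the window between them was not tested.

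SLC2A1-AS1 could not be given a value of its own. RefSeq now names it SLC2A1-DT, a divergent transcript on the plus strand, and puts its start 181 bases from that of SLC2A1 on GRCh38, far closer than a 50 kb window can resolve. Of the 250 bases upstream of SLC2A1, 180 lie between the starts and are upstream of both genes, and the 70 farthest from SLC2A1 lie past the start of the divergent RNA. The SLC2A1 stretch is shown here because the peak of SON signal lies over it and because SLC2A1 is a target of the factor that PT2399 inhibits. Beside it are the upstream stretches of ARTN, ERMAP and EBNA1BP2, with the most 5′ RefSeq entry where there are several. The SLC2A1-DT entry is not printed, since 180 of its 250 bases are those of the SLC2A1 stretch on the other strand. Each line gives the 250 bases before the start, 5′ to 3′ on the gene's strand, credited to RefSeq on GRCh38.p14, and capitals mark the core of the hypoxia response element, searched as ACGTG and GCGTG on both strands.
SLC2A1, chr1:42958869-42959118, minus strand: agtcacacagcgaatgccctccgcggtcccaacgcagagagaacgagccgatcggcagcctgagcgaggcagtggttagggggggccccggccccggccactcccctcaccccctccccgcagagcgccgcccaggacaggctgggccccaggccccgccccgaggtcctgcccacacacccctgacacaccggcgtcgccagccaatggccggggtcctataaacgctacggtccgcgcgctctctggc
ARTN, chr1:43933551-43933800, plus strand: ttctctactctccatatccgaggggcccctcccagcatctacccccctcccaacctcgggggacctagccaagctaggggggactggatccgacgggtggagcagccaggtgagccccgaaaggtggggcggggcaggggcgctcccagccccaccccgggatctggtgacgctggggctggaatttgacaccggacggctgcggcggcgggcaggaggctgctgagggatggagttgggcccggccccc
ERMAP, chr1:42816872-42817121, plus strand: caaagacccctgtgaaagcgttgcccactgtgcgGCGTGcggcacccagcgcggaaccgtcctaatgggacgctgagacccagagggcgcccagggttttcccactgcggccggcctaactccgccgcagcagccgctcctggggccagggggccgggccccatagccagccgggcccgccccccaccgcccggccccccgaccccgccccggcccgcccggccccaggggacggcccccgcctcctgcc
EBNA1BP2, chr1:43172571-43172820, minus strand: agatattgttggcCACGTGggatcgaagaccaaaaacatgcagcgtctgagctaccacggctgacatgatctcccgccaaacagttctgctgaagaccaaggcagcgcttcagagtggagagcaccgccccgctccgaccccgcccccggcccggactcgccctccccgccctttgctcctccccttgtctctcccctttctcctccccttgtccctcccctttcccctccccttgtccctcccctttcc

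In the printed stretches these letters occurred in 0 places for SLC2A1 and ARTN and in 1 place for ERMAP. For EBNA1BP2 they occurred in 2 overlapping places, 1 on each strand. A second RefSeq entry of ERMAP, not printed, held ACGTG in 1 place, with its first base 145 bases before that start. A second entry of EBNA1BP2, also not printed, held GCGTG in 1 place, 136 bases before. The SLC2A1-DT stretch held GCGTG in 2 places, 1 on each strand, with first bases 245 and 210 bases before its start. Both lie outside the SLC2A1 stretch, in the first 70 bases of the SLC2A1 gene itself. Of the 35116 RefSeq promoters of the same length, 43.2% hold at least 1 of the motifs, 18.5% ACGTG and 32.2% GCGTG. A window of 250 bases without these letters says only that they are not in it.

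ARTN, at the far end of the locus, encodes artemin, a growth factor for neurons of the GDNF family. All 9 of its 100 kb windows were called lower, with a median change of -0.33 that leaves 79.6% of the DMSO signal. Their levels across positions ran from 10.75 to 11.18 with PT2399 and from 11.11 to 11.47 with DMSO. The window with the lowest FDR, 44360001 to 44460000, had 11.11 with PT2399 and 11.44 with DMSO (FDR 7.47e-05 in the authors' deposited table). At 50 kb, 3 of its 9 windows were called lower, and the window from 44360001 to 44410000 stood at 9.83 with PT2399 and 10.29 with DMSO, or -0.46 in change, with an FDR of 0.00117 in the authors' deposited table. Among the 3994 measured 100 kb windows of like level, 2.13% had a change as low as the ARTN median. At 50 kb the share was 1.95% of 6936. Both shares include windows of the locus itself, some of which hold the ARTN start.

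HYI encodes a putative hydroxypyruvate isomerase and lies nearest the highest SON signal of the locus. Of its 9 windows of 100 kb, 8 were called lower, and the median change of -0.26 leaves 83.5% of the DMSO signal. Levels across these positions ran from 11.21 to 11.53 with PT2399 and from 11.51 to 11.71 with DMSO, which is not a spread between replicates. The window with the lowest FDR, 43840001 to 43940000, had 11.44 with PT2399 and 11.71 with DMSO (FDR 0.000142 in the authors' deposited table). HYI thus had the smallest median change of the 5 starts at 100 kb, yet more of its windows were called than at ERMAP or EBNA1BP2, which lay at lower SON levels. At 50 kb its median change was -0.32, and 1 of 9 windows was called, from 43890001 to 43940000, with 10.56 with PT2399 and 10.88 with DMSO (FDR 0.00737 in the authors' deposited table). Of windows of like level, 3.76% of 2021 at 100 kb and 0.571% of 2802 at 50 kb were as low as the HYI median. The 50 kb share is 16 windows. Both shares include windows of the locus itself, some of which hold the HYI start, so they are not an outside background. At 50 kb the HYI share was the smallest of the 5 starts, and that of EBNA1BP2 was the largest at 14.4%.

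ERMAP encodes a membrane protein of red cell precursors that carries the Scianna blood group. Its median change at 100 kb was -0.30, with levels from 10.27 to 10.37 with PT2399 and from 10.57 to 10.67 with DMSO. These ranges run over window positions that share reads, and do not measure the spread between replicates. Only 2 of its 9 windows were called lower, and the one with the lower FDR, 43280001 to 43380000, had 10.27 with PT2399 and 10.63 with DMSO (FDR 0.00426 in the authors' deposited table). That window reaches towards SLC2A1. At 50 kb 0 of 9 windows were called, with changes from -0.46 to -0.28 and a lowest FDR of 0.0422 in the authors' deposited table. Of windows of like level, those of the locus included, 8.95% of 8326 at 100 kb were as low as the ERMAP median. At 50 kb 9.02% of 16912 were.

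EBNA1BP2 encodes a nucleolar protein of large ribosomal subunit assembly. Its median change at 100 kb was also -0.30, with levels from 10.26 to 10.68 with PT2399 and from 10.48 to 10.99 with DMSO. Again 2 of 9 windows were called lower, both reaching towards higher coordinates, and the one from 43620001 to 43720000 had 10.65 with PT2399 and 10.98 with DMSO (FDR 0.00611 in the authors' deposited table). At 50 kb 0 of 9 were called, and the change varied from -0.09 in the window from 43590001 to 43640000 to -0.45 in the window from 43630001 to 43680000. The second of these had 9.54 with PT2399 and 9.99 with DMSO (FDR 0.0395 in the authors' deposited table). Of windows of like level, those of the locus included, 7.9% of 7934 at 100 kb were as low as the EBNA1BP2 median. At 50 kb 14.4% of 14097 were. Regardless of level, 23.7% (SLC2A1) to 32.0% (HYI) of all measured 100 kb windows were as low as the medians of the 5 starts. At 50 kb these shares ran from 26.4% (ARTN) to 33.2% (EBNA1BP2). Differences in change between the 5 starts were not tested, and their order was not kept at 50 kb, where the medians ran from -0.37 at ARTN through -0.35 at ERMAP, -0.33 at SLC2A1 and -0.32 at HYI to -0.28 at EBNA1BP2.

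**Figure D2:**
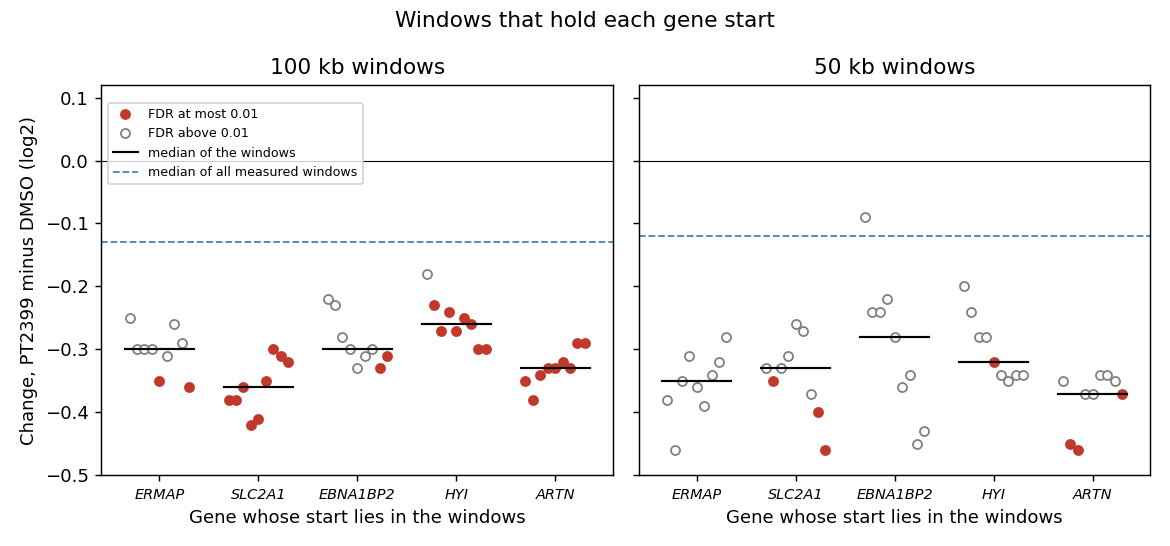
Change in SON level, PT2399 minus DMSO in log2 units (y axis), in the 9 windows that hold each gene start (x axis), with 100 kb windows on the left and 50 kb windows on the right. Filled red points are windows with an FDR of at most 0.01, open points the others, black bars the median of the 9 and the dashed line the median of all measured windows, -0.13 and -0.12. Every 100 kb point lies below the dashed line, with all 9 points filled at SLC2A1 and ARTN and 2 filled at ERMAP and at EBNA1BP2.

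Between the starts, called windows formed separate blocks. Merged where they overlapped by at least 1 base, the lower 100 kb windows made a block of 280 kb from 43240001 to 43520000, which holds the starts of ERMAP and SLC2A1, and a block of 130 kb from 43620001 to 43750000, which holds that of EBNA1BP2. A further block of 340 kb, from 43830001 to 44170000, holds the HYI start, and it abuts a block that begins at 44170001 and holds ARTN. The longest runs without a call were 17 windows with first bases from 43430001 to 43610001, where the change ran from -0.33 to -0.19, and 15 windows with first bases from 43660001 to 43820001, where it ran from -0.27 to -0.10.

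The second of these runs held the smallest changes of the locus. The window from 43700001 to 43800000 had 10.94 with PT2399 and 11.04 with DMSO, so its change was -0.10, with an FDR of 0.388 in the authors' deposited table. In the 50 kb window from 43750001 to 43800000 both treatments stood at 10.06, a change of 0.00 and the only one of 244 not below 0 (FDR 0.981 in the authors' deposited table). With DMSO this level lay above the 50 kb medians at the ERMAP (9.62) and EBNA1BP2 (9.85) starts. It lay below those at SLC2A1 (10.39), ARTN (10.4) and HYI (10.82). With PT2399 it lay above the medians at ERMAP (9.25), EBNA1BP2 (9.57) and ARTN (10.03) and below those at SLC2A1 (10.13) and HYI (10.56). Whether the level bears on the size of the change was not tested.

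**Figure D3:**
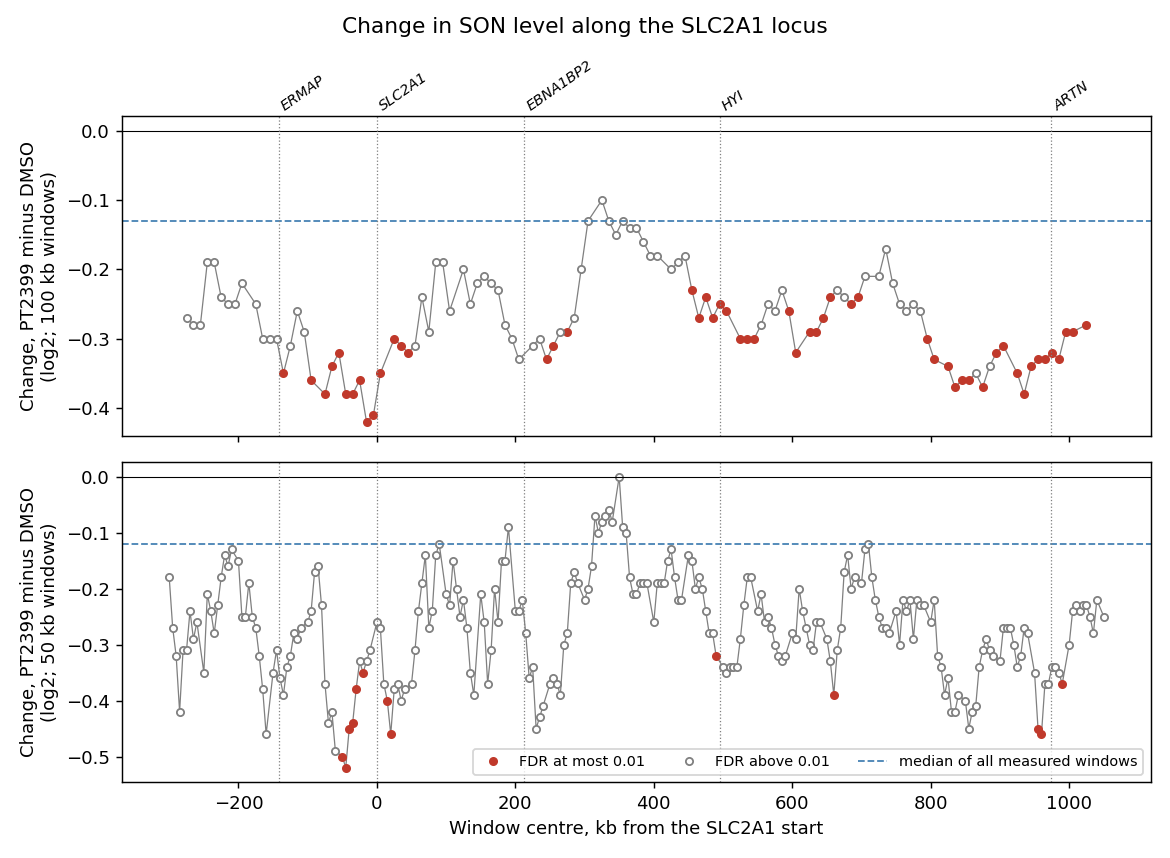
Change in SON level, PT2399 minus DMSO in log2 units (y axis), against the distance of the window centre from the SLC2A1 start in kb (x axis), for 100 kb windows above and 50 kb windows below. Red points have an FDR of at most 0.01, open points do not, the dashed line is the median of all measured windows and dotted lines mark gene starts. The change is lowest near SLC2A1, at -0.42 and -0.52, comes up to -0.10 and 0.00 between EBNA1BP2 and HYI, and is low again near ARTN.

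At 50 kb, 13 of the 244 windows were called lower (5.33%), where 0.357% of all measured windows were and 0.912% of the other windows with a mean concentration in the range of the locus. Higher calls numbered 0 in the locus, against 0.0291% of all measured 50 kb windows. An unadjusted p under 0.05 in the authors' deposited tables was held by 166 of the 244, a count whose share in the genome was not worked out. Of the 13 lower windows, 8 lay between 43350001 and 43470000 around SLC2A1, 3 between 44355001 and 44440000 at ARTN and 1 at HYI. The remaining window, from 44060001 to 44110000, lies between HYI and ARTN and had 9.95 with PT2399 and 10.34 with DMSO (FDR 0.00487 in the authors' deposited table). The median change of all 244 was -0.27. A change below 0 was also found in 82.5% of the other 50 kb windows in that range and in 64.3% of all measured ones. After recentring 0 windows of the locus were called, where 0.0403% of all measured windows were called lower. The lowest adjusted p in the locus was 0.0383 by the implied-error test.

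**Figure D4:**
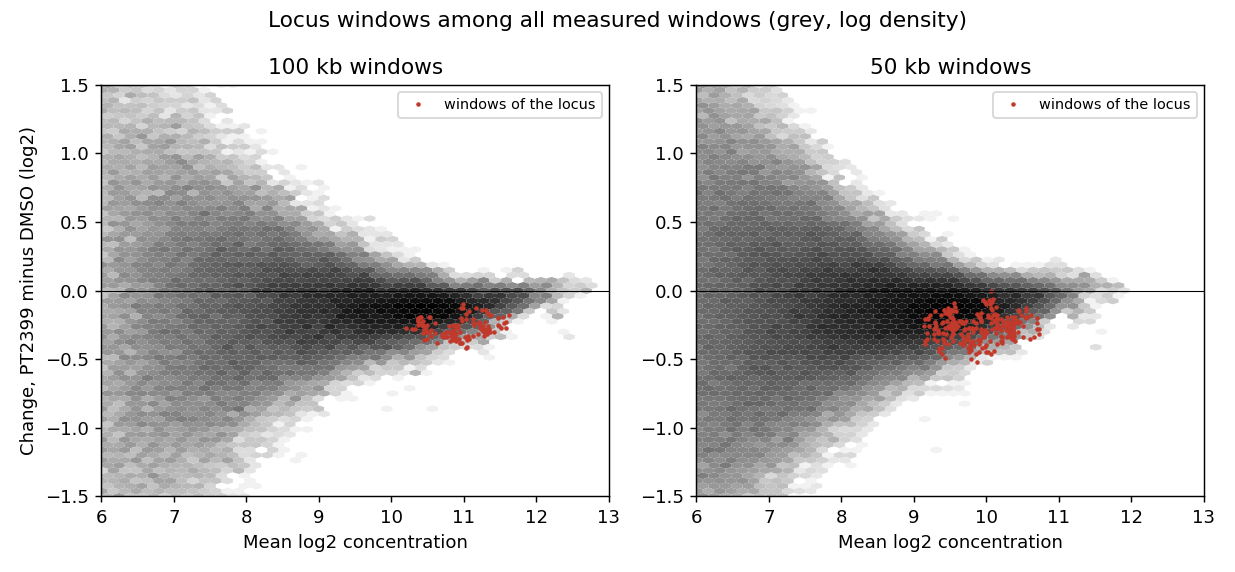
Change, PT2399 minus DMSO in log2 units (y axis), against the mean log2 concentration of both treatments (x axis, shown from 6), for all measured windows as grey log density and for the windows of the locus in red, with 100 kb windows on the left and 50 kb windows on the right. The locus windows lie at mean concentrations from 10.2 to 11.62 at 100 kb and from 9.14 to 10.73 at 50 kb, in the lower part of the grey cloud at those levels.

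Lower signal was not confined to the locus. In the 1400 kb on the side of lower coordinates, the median 100 kb change was -0.23 and the summed PT2399 signal was 85.7% of the DMSO signal, close to the 83.0% of the locus, but 0 of its 118 windows were called. SON levels were lower there, from 8.64 to 10.36 with PT2399 and from 9.08 to 10.51 with DMSO. On the side of higher coordinates the median change was -0.11, the sum was 92.0%, near that of all measured windows, and 8 of 118 windows were called lower (6.78%). The windows that adjoin the locus had changes of -0.46 (43000001 to 43100000, FDR 0.0185) and -0.27 (44500001 to 44600000, FDR 0.0276) in the authors' deposited table. No test was made between the locus and its flanks.

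All 6 genes of the locus were in the authors' deposited list of genes at lower 100 kb windows, and SLC2A1, SLC2A1-AS1, HYI and ARTN were also in the 50 kb list. ERMAP and EBNA1BP2, with 0 called 50 kb windows at their starts, were in the 100 kb list alone. In RefSeq gene order, from the gene before ERMAP to the fifth after ARTN, 17 of 22 protein-coding genes were in the 100 kb list (77.3%), against 4.27% of all protein-coding genes, and 5 of 22 were in the 50 kb list, against 1.1%. These genes share windows, so they are not 17 separate observations.

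Listed neighbours had varied roles. They included SVBP and ZNF691 beside ERMAP, CFAP57 and TMEM125 after EBNA1BP2, and ELOVL1, a fatty acid elongase, and MED8, a Mediator subunit, before HYI. Between HYI and ARTN they included PTPRF, a receptor tyrosine phosphatase, KDM4A, a histone demethylase, its antisense RNA KDM4A-AS1 and ST3GAL3, a sialyltransferase. IPO13, an importin, and DPH2, an enzyme of diphthamide synthesis, follow ARTN and were in both lists. Unlisted protein-coding genes included CFAP144, between SLC2A1 and EBNA1BP2, and, between TMEM125 and ELOVL1, C1orf210, TIE1, a receptor of endothelial cells, and CDC20, an activator of the anaphase-promoting complex. By gene order C1orf210, TIE1 and CDC20 lie between EBNA1BP2 and HYI, as do the windows with the smallest changes. The sources used here do not say which rule tied a gene to a window.

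Some other genes of glucose uptake and use were listed. Of the 14 facilitative glucose transporters of the SLC2A family, the authors' deposited 100 kb list named SLC2A1, the fructose transporter SLC2A5 and SLC2A7 (21.4%), and their 50 kb list named SLC2A1 and SLC2A3, the main transporter of neurons (14.3%). Of 21 genes of glycolysis and lactate export, the 100 kb list of the authors named the enzymes PFKP and ALDOA (9.52%) and the 50 kb list named 0. Shares over all protein-coding genes are the 4.27% and 1.1% above. SLC2A1 is the gene the locus was chosen for, so its entry adds nothing new to these counts. Listed genes that lie close together can share windows, and no test compared the shares.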

How the data were processed

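Bowtie2, Picard, DiffBind and bedtools, with the build hg19, are named in the submitters' processing notes without versions or settings. What the authors deposited, per the file headers, is a log2 concentration per treatment, a log2 fold, a p-value and an FDR for every window. The deposited fold is control minus treatment (tolerance 0.01), and its sign was turned. The deposited gene and window lists hold no measurement. Members and lists were chosen with earlier results of these data known. Calls used the authors' FDR (at most 0.01, adjusted within each of the 9 sets) with both concentrations at least 2. For the recentred alternative, a window's standard error was its fold divided by the normal quantile that its p-value gives. Where the fold was within 0.1 of 0 or p was 0.5 or more, the median of its bin (20 bins by concentration) was used. The resulting p-values, two-sided, were adjusted by Benjamini-Hochberg within a set. A run on simulated data drew its noise from the same implied error and added changes larger than any recentred change of the locus. It therefore does not show how well changes of the size seen here are recovered. Named genes were the 6 members, neighbours in either gene list and listed members of the lists of glucose transporters and glycolysis; some neighbours are not reported here. RefSeq (GRCh38) matched 982 of the 1023 and 251 of the 258 listed symbols and served for names, order, strand and promoters. Tools were Python 3.11.15 with pandas 2.3.3, scipy 1.17.1, numpy 2.4.6 and matplotlib 3.10.9.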

Additional observations from a re-analysis of the deposited data

How the results depend on the processing

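Lower windows numbered 53 at 100 kb and 13 at 50 kb as reported above. An FDR limit of 0.05 gave 86 (100 kb) and 48 (50 kb), a limit of 0.1 gave 91 and 80, and a limit of 0.001 gave 17 and 1. Adjustment over all 9 sets together gave 29 and 4, and recentring with the implied error gave 1 and 0. With the implied error and no recentring the 50 kb count was 8 (3.28%) and the 100 kb count 49 (41.5%). Of all measured windows, 0.246% at 50 kb and 1.39% at 100 kb were called lower that way. After recentring those shares were 0.0403% and 0.161%. For the other FDR limits and the joint adjustment no share over all measured windows was worked out, so those counts cannot be set against the genome. The fall after recentring comes with the removal of the median shift of the measured windows (-0.13 to -0.12 by set), whose origin was not tested. The counts of higher windows stayed at 0 in all of these settings. At the SLC2A1 start the 100 kb change became -0.24 after recentring, with a median adjusted p of 0.0722. The HYI and ARTN starts likewise lost the call at 100 kb after recentring (-0.13 and -0.20), and HYI gained one at 50 kb in the window nearest its start (-0.32, FDR 0.00737 in the authors' deposited table). No change at a gene start turned its sign, and dropping the concentration minimum or raising it to 4 altered no count. No paired analysis was possible because the deposited columns are means per treatment and carry no replicate number, and for the same reason replicates could not be left out in turn. Depth per library is unknown, so what it limits cannot be given.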

Other observations

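The block of lower 100 kb windows that holds ARTN did not end at the edge of the locus. It ran from 44170001 to 44720000, 550 kb, with 32 called windows by the FDR in the authors' deposited tables. The block was merged from called windows alone, so this count is not a share of windows tested. In the 1400 kb beyond the locus on that side, 8 of 118 windows of 100 kb were called lower (6.78%), against 1.55% of all measured windows. At 50 kb the calls at ARTN spanned 85 kb. Of the 244 windows of 50 kb in those 1400 kb, 1 was called lower (0.41%), near the 0.357% of all measured windows.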
